A study of Homo sapiens with 4 samples.

Results

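A list of 46 genes for collagens, basement membrane proteins, matrix glycoproteins and collagen-modifying enzymes was followed in Caki-1, a long-established line of human renal carcinoma cells, after knockdown of the transcription factor TFE3. The genes were found in a table of read counts by matching its Ensembl identifiers to the 46 symbols, and each symbol matched a single row of the 61533 in the table. They comprise 22 collagen chains, 5 laminin chains, 4 nidogen and basement membrane proteoglycan genes, 8 matrix glycoproteins and 7 enzymes or chaperones of collagen.

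The shTFE3 arm carried lentiviral short hairpin RNA against TFE3 and the shControl arm a lentiviral control sequence, with 2 libraries of polyadenylated RNA in each; the genotype labels call them TFE3-KD and WT. Cells of both arms were replated 24 hours after infection, received puromycin at 1 µg/ml from 12 hours later, and were collected after 3 days of selection. The labels do not give the number of hairpins, nor whether each replicate had an infection of its own. The p-values therefore reflect how far these 4 libraries spread, in large part as shared over genes, and that spread may be technical. Both arms are 1 tumour cell line in culture, without the other cell types of a kidney.

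Total counts were between 17270180 and 17742519 per library, and 3 counts corresponded to 0.169 to 0.174 CPM (counts scaled to library size), the level a count of 0 still allows, which covers counting error only. TFE3 itself had 70.1 and 66.9 CPM, here scaled with TMM factors, in shTFE3 against 131 and 128 CPM in shControl. It fell by 0.92 on the log2 scale (SE 0.062, edgeR adjusted p 5.6e-11), to 52.9% of the control level. The renal lineage factor PAX8 and the keratins KRT8 and KRT18 were present in every library, while PAX2, CA9 and LRP2, also markers of renal epithelium or carcinoma, had 0 counts in all. The list of such markers held 10 genes, of which 7 were tested and 2 fell (28.6%, beside 12.9% of all tested genes). CDH6 had 187 and 161 CPM in shTFE3 against 247 and 261 CPM in shControl (log2 fold change -0.55, edgeR adjusted p 5.95e-07). KRT18 had 77.7 and 80.1 CPM in shTFE3 against 93.0 and 98.4 CPM in shControl (-0.28, edgeR adjusted p 0.00191). Of 8 markers of fibroblasts and pericytes, the main makers of fibrillar collagen in tissue, 7 had a count, with summed levels of 28.4 to 30.7 CPM in shTFE3 and 34.7 to 35.2 CPM in shControl. Nearly all of that came from RGS5, PDGFRB and ACTA2. LUM was at 0 in every library, and PDGFRA, THY1, FAP and DCN had at most 2 counts in any. Endothelial markers summed to 3.48 to 4.12 CPM in shTFE3 and 2.93 to 3.23 CPM in shControl, and leukocyte markers to 0.779 to 0.899 CPM in shTFE3 and 0.410 to 0.528 CPM in shControl, with CDH5 and CD3E at 0. The leukocyte difference rests mainly on CD14, with 10 and 11 counts in shTFE3 against 2 and 2 in shControl. CSF1R went the other way, with 2 and 4 counts in shTFE3 against 5 and 6 in shControl. The part of such markers in the results was not tested.

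Basement membranes are sheets built on a laminin network and a network of type IV collagen, which nidogens and the heparan sulfate proteoglycans perlecan and agrin join together. In the kidney they lie under tubule epithelium and form the filter of the glomerulus. The interstitial matrix outside them holds fibrillar collagens, type VI collagen, fibronectin, fibrillins and versican. Collagen chains are hydroxylated on proline and lysine and folded into a helix of chains inside the endoplasmic reticulum, and are cross-linked outside the cell by lysyl oxidases. The genes of type IV collagen lie in head-to-head pairs that start from a shared promoter.

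The shared promoter of COL4A1 and COL4A2 is shown because both genes lie among the larger falls described below. RefSeq (GRCh38.p14) places the start of COL4A1 at position 110307157 of chromosome 13 on the minus strand and that of COL4A2 at 110307284 on the plus strand, with 126 bases between them. They read, on the plus strand, with a CCAAT box and a GGGCGG element, the core of a GC box, in capitals:
COL4A1 to COL4A2, chr13:110307158-110307283: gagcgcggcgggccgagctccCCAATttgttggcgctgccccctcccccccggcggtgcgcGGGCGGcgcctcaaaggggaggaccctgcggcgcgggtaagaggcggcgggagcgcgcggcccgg

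TFE3 and its relatives bind the E-box CACGTG and related sites. That hexamer, the heptamer TCACGTG and the related TCATGTG were searched on both strands of RefSeq windows from 250 bases before to 50 after each start. Matching windows were found for 37 of the 46 genes. CACGTG was present for 1 of the 37, FBN2, a fibrillin that did not pass the test of change, and for 8.77% of all 27305 genes with a window. It was found in 0 of the 15 genes with a window that fell and 0 of the 5 that rose. TCACGTG, each match of which also holds the hexamer, was found in 0 of the 37 and in 4.49% of all genes. TCATGTG was found in 0 of the 37 and in 3.59% of all genes. No match says only that these letters are absent from these windows. The FBN2 match lies 97 bases before the start, with CACGTG in capitals, written on the gene's own minus strand:
FBN2, chr5:128538315-128538364: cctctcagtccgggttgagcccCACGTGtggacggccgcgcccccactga

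CCAAT in either direction was present for 14 of the 37 genes, against 39.7% of all genes, GGGCGG for 25 (48.3% of all), and TATAAA for 6 (14.0% of all). The last 100 bases before the start are given for a pair of genes that fell, COL12A1 and THBS1, and a pair that rose, COL7A1 and PLOD2, each on its own strand, with CCAAT and GGGCGG of either direction (reversed, ATTGG or CCGCCC) in capitals:
COL12A1, chr6:75206054-75206153, minus strand: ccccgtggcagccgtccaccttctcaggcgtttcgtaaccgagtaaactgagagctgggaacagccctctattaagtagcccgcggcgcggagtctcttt
THBS1, chr15:39580979-39581078, plus strand: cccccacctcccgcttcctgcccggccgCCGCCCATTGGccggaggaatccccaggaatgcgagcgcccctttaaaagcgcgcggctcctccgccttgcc
COL7A1, chr3:48595330-48595429, minus strand: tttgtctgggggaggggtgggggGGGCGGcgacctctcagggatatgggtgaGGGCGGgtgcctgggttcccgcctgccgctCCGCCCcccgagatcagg
PLOD2, chr3:146161185-146161284, minus strand: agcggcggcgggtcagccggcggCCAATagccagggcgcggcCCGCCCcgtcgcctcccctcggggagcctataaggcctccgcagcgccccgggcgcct

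Levels of different genes were compared as TPM, which divide counts by exon length and scale each library to the same sum. FN1, the gene of fibronectin, was the most abundant, at a mean of 3217 TPM in shTFE3 and 3089 TPM in shControl, and it had the highest count of any gene in each of the 4 libraries. SPARC, a collagen-binding matricellular protein, had 698 TPM in shTFE3 and 849 TPM in shControl. COL6A1 had 716 TPM in shTFE3 and 660 TPM in shControl, and COL6A2 had 664 TPM in shTFE3 and 689 TPM in shControl. VCAN had 568 TPM in shTFE3 and 581 TPM in shControl, and LAMB1 had 383 TPM in shTFE3 and 494 TPM in shControl. The order of SPARC, COL6A1 and COL6A2 differed between the arms: COL6A1 was highest of them in shTFE3 and SPARC in shControl. It also depended on the length used. Divided by the longest transcript in place of all exon bases, COL6A2 averaged 773 TPM over the 4 libraries, SPARC 741 TPM and COL6A1 637 TPM, while FN1 was still highest, at 4371 TPM. The means of COL4A2 and COL4A1 were 208 and 171 TPM with all exon bases and 453 and 280 TPM with the longest transcript. Of the 46 genes, 33 had a mean of at least 10 TPM over all libraries, and 18 of at least 100 TPM, with all exon bases as length. At the other end, 11 were under 1 TPM. These include the chains of interstitial collagen COL1A2, COL3A1 and COL5A1, with at most 1 count in any library, and POSTN, with 0 and 0 counts in shTFE3 and 1 and 2 in shControl.

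**Figure D1:**
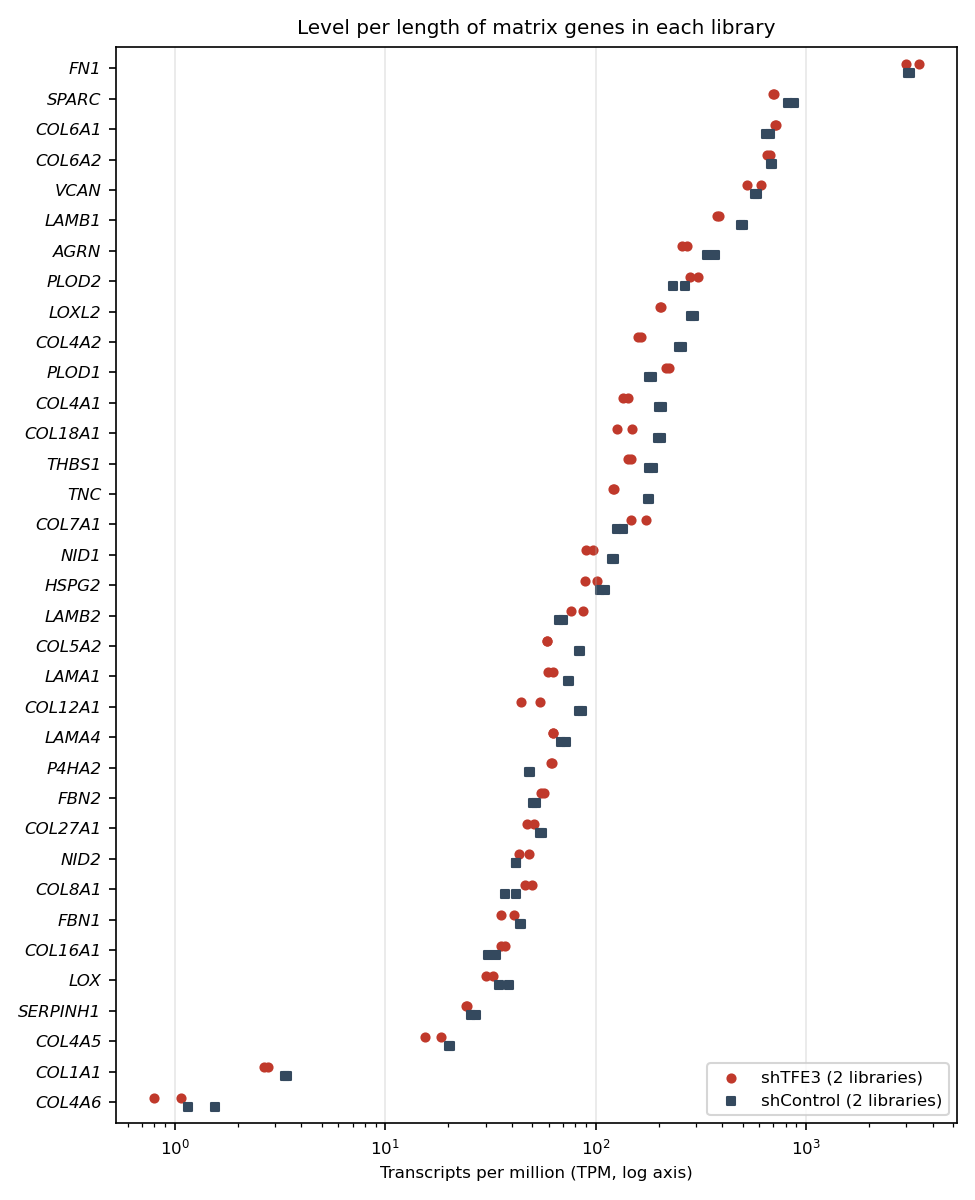
Level per length, in TPM on a log axis, of the 35 matrix genes with a mean of at least 1 TPM, in each shTFE3 library (circles) and each shControl library (squares). FN1 stands apart, with means of 3217 TPM in shTFE3 and 3089 TPM in shControl, and for 33 of the genes the mean over all libraries is at least 10 TPM.

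The 46 genes together took 2.71% and 2.46% of all counts in shTFE3 against 2.78% and 2.74% in shControl. FN1 alone made up 53.4% and 51.7% of these matrix counts in shTFE3 and 48.4% and 47.8% in shControl. Without FN1 the list took 1.26% and 1.19% of all counts in shTFE3 against 1.43% in both shControl libraries. In bulk RNA, fewer cells with a transcript and less of it per cell cannot be told apart, and this holds for every level given here.

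Of the 46 genes 19 fell, 6 rose and 14 did not pass (quasi-likelihood test of edgeR, with p-values adjusted over all 15950 tested genes by the Benjamini-Hochberg method and a threshold of 0.05), and 7 had too few counts to be tested. The 19 are 41.3% of the list and 48.7% of its 39 tested genes, beside 12.9% of all tested genes that were lower in shTFE3. The 6 are 15.4% of the tested genes, beside 10.3% of all tested genes that were higher. All tested genes include many of low count, where calls are rarer. With at least 50 counts in 2 libraries required, 34 genes of the list were tested, and 6 rose and 19 fell. The shares of all tested genes were then 13.8% higher and 15.6% lower. The median log2 fold change of the 39 was -0.30, and that of all tested genes 0.0015. None of the 39 tested genes changed as much as 2-fold, and the median absolute log2 fold change of the 25 called genes was 0.34. The arms did not overlap in CPM for 34 of the 39, among them each of the 25, a separation that 60.3% of all tested genes also had.

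**Figure D2:**
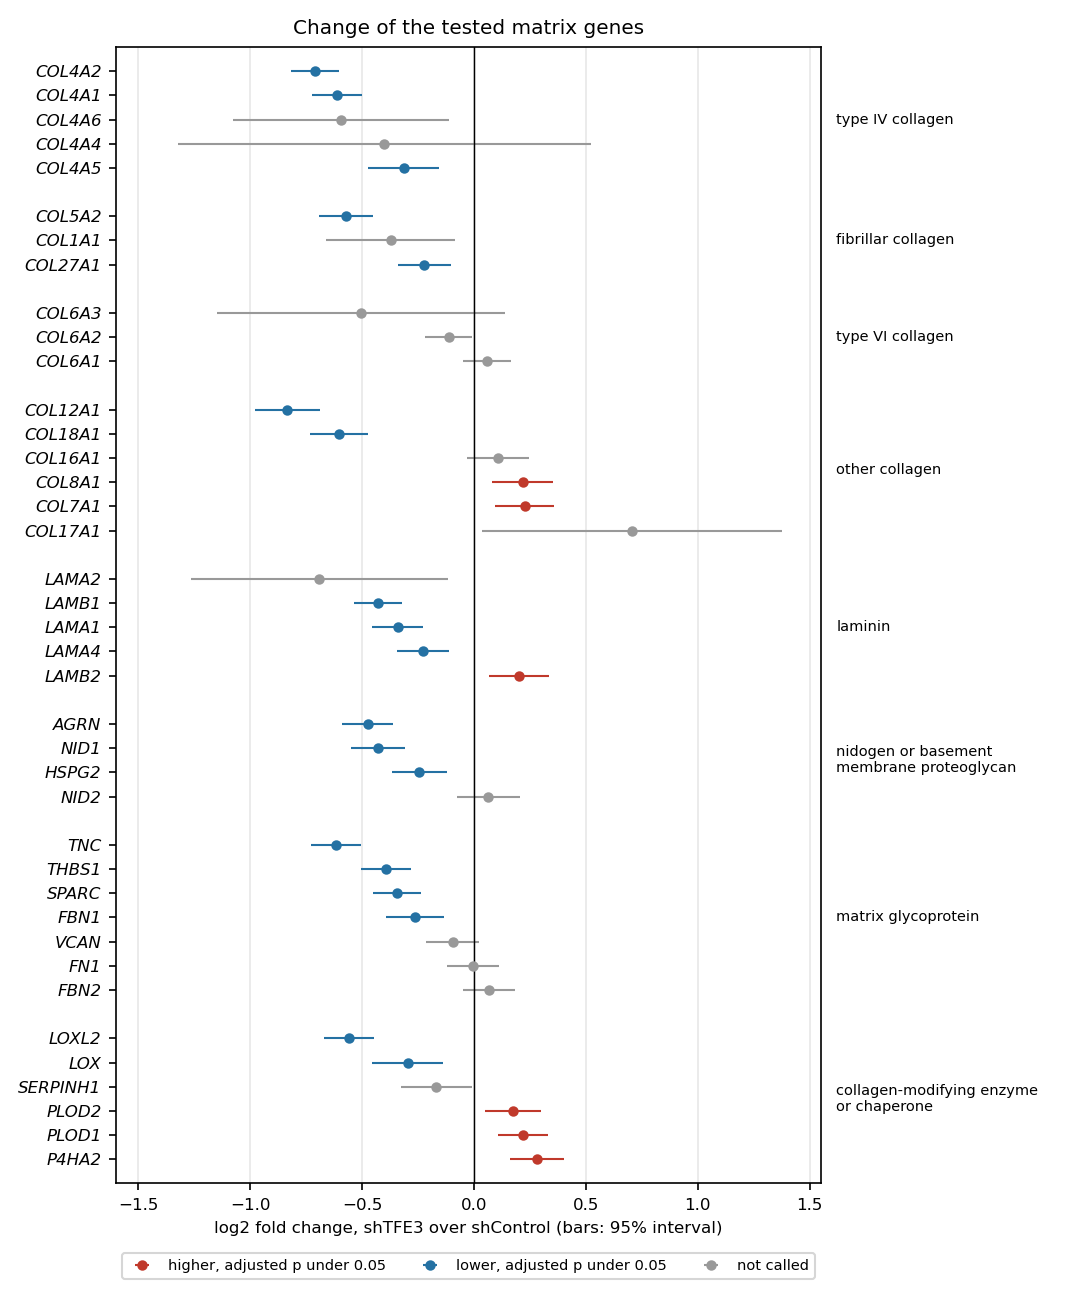
log2 fold change (shTFE3 over shControl, points) with its 95% interval (bars) for the 39 tested matrix genes, grouped by role; blue marks genes that fell, red genes that rose and grey those that did not pass. The points run from -0.83 for COL12A1 to 0.70 for COL17A1, which had few counts and a wide interval.

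Calls differed in how they held when a choice was changed. COL4A1, COL4A2, COL5A2, LAMB1, SPARC, TNC and LOXL2, 7 in all, kept their fall under each of the 12 alternatives run. COL12A1, COL18A1, LAMA1, NID1, AGRN and THBS1 lost it only when genes of low count were not filtered out, a setting that ended 18 of the 25 calls and left 0.325% of all tested genes called higher and 0.876% lower. The other 12 also lost it with some library left out, as given with each group. By DESeq2 3 rose, beside 5.32% of all tested genes called higher. The rises were also fewer with each library left out in turn, and so were the rises among all tested genes.

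Type IV collagen, the network-forming collagen of basement membranes, was lower in its main chains. COL4A2 (ENSG00000134871, chromosome 13, 110305812 to 110513209, plus strand, GRCh38) had 765 and 741 CPM in shTFE3 against 1214 and 1250 CPM in shControl. COL4A1 (ENSG00000187498, chromosome 13, 110148963 to 110307233, minus strand), its partner across the promoter shown above, had 502 and 483 CPM in shTFE3 against 768 and 738 CPM in shControl. For both genes each knockdown library lay well under each control library. COL4A2 fell by 0.71 on the log2 scale (SE 0.052, edgeR adjusted p 2.23e-10), to 61.1% of control, and COL4A1 fell by 0.61 (SE 0.053, edgeR adjusted p 4.04e-09), to 65.4%. The ratio of COL4A2 to COL4A1 in TPM was 1.16 and 1.17 in shTFE3 and 1.21 and 1.29 in shControl, so the pair moved by similar amounts; the size of this ratio depends on the length used, as given above. The protein is assembled from these chains as a helix that holds more of the COL4A1 product than of the COL4A2 product.

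COL4A5, a chain of the collagen of mature glomerular and tubular basement membranes, had 52.5 and 44.7 CPM in shTFE3 against 60.9 and 59.9 CPM in shControl, and fell by 0.31 on the log2 scale (SE 0.077, edgeR adjusted p 0.00361). Without shTFE3 replicate 2, the lower of the pair, its value was -0.20 with an edgeR adjusted p of 0.137. COL4A6 has RefSeq starts at 379 and at 1415 bases from that of COL4A5 on the X chromosome. It was scarce, at 2.39 and 1.80 CPM in shTFE3 against 3.63 and 2.70 CPM in shControl. The arms did not overlap, but it did not pass (log2 fold change -0.59, SE 0.234, edgeR adjusted p 0.0686), although it did without shControl replicate 2 (-0.79, edgeR adjusted p 0.0398). COL4A3 and COL4A4, the third pair, with 418 bases between their starts on chromosome 2, had at most 12 counts in shTFE3 and at most 14 in shControl. COL4A4 reached the test and did not pass (log2 fold change -0.40, SE 0.448), and COL4A3 was not tested.

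**Figure D3:**
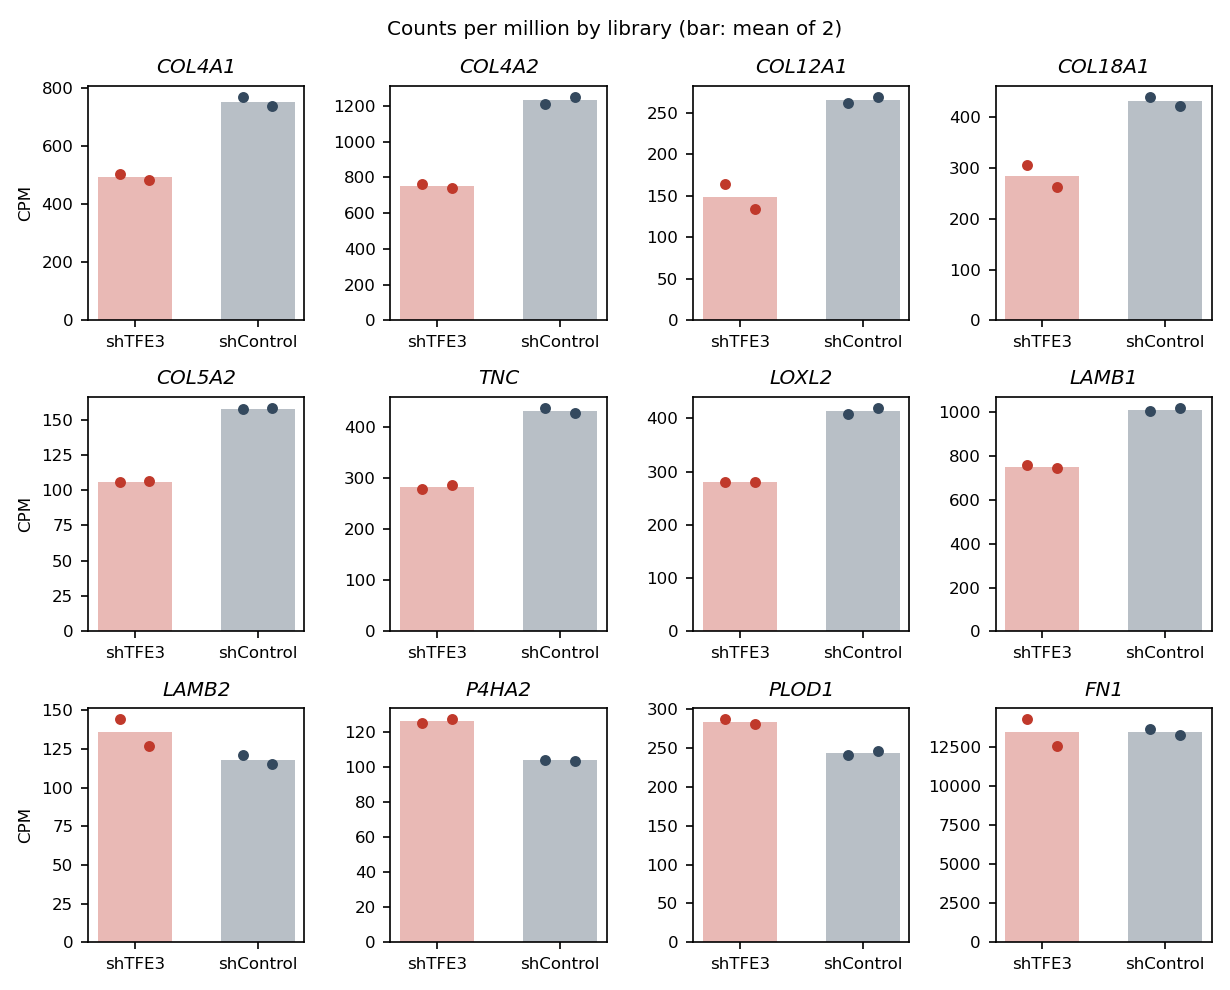
CPM of 12 matrix genes in each library (points) with the mean of the 2 libraries (bars), shTFE3 left and shControl right, each axis from 0. The shTFE3 points lie under the shControl points from COL4A1 to LAMB1 and above them for LAMB2, P4HA2 and PLOD1, while those of FN1 overlap.

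Fibrillar collagens were represented by COL5A2 and COL27A1. COL5A2 (chromosome 2, 189031896 to 189225312, minus strand), a chain of the type V collagen that starts and thins fibrils, had 105 and 107 CPM in shTFE3 against 157 and 158 CPM in shControl. The libraries of each arm were nearly alike and the arms far apart, and it fell by 0.57 on the log2 scale (SE 0.058, edgeR adjusted p 5.49e-08). Its usual partner chain COL5A1 had 0 and 0 counts in shTFE3 and 0 and 1 in shControl. COL27A1 had 172 and 161 CPM in shTFE3 against 192 and 196 CPM in shControl, a smaller fall of 0.22 (SE 0.058, edgeR adjusted p 0.00561). It lost the call without shTFE3 replicate 2 (-0.18, edgeR adjusted p 0.111) and without shControl replicate 2 (-0.21, edgeR adjusted p 0.0612). COL1A1, a chain of the main collagen of bone and scar, was low, at 6.23 and 6.63 CPM in shTFE3 against 8.27 and 8.39 CPM in shControl, and did not pass (-0.37, SE 0.140, edgeR adjusted p 0.0554). The fibroblast and pericyte markers were also lower in sum in shTFE3. Of these RGS5, a pericyte marker, had 8.01 and 9.84 CPM in shTFE3 against 14.5 and 16.0 CPM in shControl, and the lower sum rests on it. PDGFRB had 12.9 and 12.4 CPM in shTFE3 against 11.5 and 11.3 CPM in shControl, and ACTA2 had 9.68 and 6.07 CPM in shTFE3 against 8.50 and 7.75 CPM in shControl. RGS5 fell by 0.77 on the log2 scale (SE 0.124, edgeR adjusted p 4.29e-05), while PDGFRB and ACTA2 did not pass (edgeR adjusted p 0.407 and 0.888). RGS5 is thus 1 of 3 tested markers of this list, or 33.3%, beside 12.9% of all tested genes that fell.

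Type VI collagen, a beaded filament around basement membranes, did not pass in any chain of the list. COL6A1 and COL6A2 were abundant, at means of 688 and 677 TPM over the 4 libraries, while COL6A3 was scarce, at 0.31 TPM. COL6A1 had 919 and 926 CPM in shTFE3 against 909 and 866 CPM in shControl (log2 fold change 0.06, 95% interval -0.05 to 0.16). COL6A2 had 876 and 851 CPM in shTFE3 against 942 and 925 CPM in shControl (log2 fold change -0.11, 95% interval -0.22 to -0.01, edgeR adjusted p 0.119). COL6A3, the largest chain of the classical assembly, had 23 and 22 counts in shTFE3 and 40 and 21 in shControl, where the libraries of the control arm lay further apart than the arms. The ratio of COL6A2 to COL6A1 in TPM was 0.945 and 0.911 in shTFE3 and 1.03 and 1.06 in shControl.

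The other collagens went both ways. COL12A1 (ENSG00000111799, chromosome 6, 75084326 to 75206051, minus strand), a collagen that sits on the surface of fibrils, had the largest fall of any called gene of the list, with 164 and 134 CPM in shTFE3 against 262 and 269 CPM in shControl. The knockdown libraries differed from each other more than the control libraries did, and both lay under them. It fell by 0.83 on the log2 scale (SE 0.070, edgeR adjusted p 2.01e-09), to 56.1% of control. COL18A1, the heparan sulfate collagen of basement membranes whose fragment is endostatin, had 306 and 262 CPM in shTFE3 against 439 and 422 CPM in shControl and fell by 0.60 (SE 0.063, edgeR adjusted p 8.16e-08). In GENCODE 29, 16.4% of its exon bases are shared with SLC19A1 on the opposite strand, which had far fewer counts (2573 against 24839 over the 4 libraries), and reads of the shared part cannot be assigned without the strand setting.

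COL7A1, the collagen of the fibrils that anchor epithelium to the matrix beneath, had 461 and 394 CPM in shTFE3 against 378 and 353 CPM in shControl. COL8A1, a short-chain network collagen, had 112 and 105 CPM in shTFE3 against 88.4 and 98.3 CPM in shControl. In both genes the nearest libraries of the arms were close, at 394 CPM in shTFE3 against 378 CPM in shControl for COL7A1 and 105 CPM in shTFE3 against 98.3 CPM in shControl for COL8A1. On the log2 scale COL7A1 rose by 0.23 (SE 0.064, edgeR adjusted p 0.011). COL8A1 rose by 0.22 (SE 0.066, edgeR adjusted p 0.0173). COL7A1 lost the call without shTFE3 replicate 1 (0.11, edgeR adjusted p 0.295) and without shControl replicate 2 (0.17, edgeR adjusted p 0.157). COL8A1 lost it without shTFE3 replicate 1 (edgeR adjusted p 0.246), without shTFE3 replicate 2 (0.124), without shControl replicate 1 (0.14 on the log2 scale, edgeR adjusted p 0.306) and by DESeq2 (0.0718). COL16A1, which associates with fibrils, had 82.8 and 79.6 CPM in shTFE3 against 79.0 and 71.7 CPM in shControl and did not pass. COL17A1, a transmembrane collagen of hemidesmosomes, had 22 and 38 counts in shTFE3 and 18 and 17 in shControl and did not pass (log2 fold change 0.70, SE 0.325, edgeR adjusted p 0.124), and the transmembrane collagen gene COL13A1 had at most 2 counts.

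Laminin chains differed by type. LAMB1 (ENSG00000091136, chromosome 7, 107923799 to 108003255, minus strand), a beta chain of the laminins of embryonic and many adult basement membranes, had 758 and 745 CPM in shTFE3 against 1006 and 1020 CPM in shControl. LAMA1, an alpha chain of the developing nephron, had 240 and 228 CPM in shTFE3 against 299 and 293 CPM in shControl. Both were lower in each knockdown library than in any control library, and on the log2 scale LAMB1 fell by 0.43 (SE 0.052, edgeR adjusted p 7.51e-07) while LAMA1 fell by 0.34 (SE 0.055, edgeR adjusted p 4.88e-05). LAMA4, a chain of vascular laminins, had 174 and 176 CPM in shTFE3 against 200 and 209 CPM in shControl and fell by 0.23 (SE 0.056, edgeR adjusted p 0.00393). LAMA2, a chain of muscle laminin, had 29 and 19 counts in shTFE3 and 41 and 33 in shControl and did not pass (-0.69, SE 0.279, edgeR adjusted p 0.0755).

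LAMB2, the beta chain of the mature glomerular basement membrane, went the other way, with 144 and 127 CPM in shTFE3 against 121 and 115 CPM in shControl, and rose by 0.20 on the log2 scale (SE 0.065, edgeR adjusted p 0.0249). The ratio of LAMB2 to LAMB1 in TPM was 0.225 and 0.202 in shTFE3 and 0.142 and 0.134 in shControl. With 2 libraries an arm, an exact permutation test of such a ratio cannot go below a two-sided p of 0.333, and none was run. The LAMB2 call was lost without shTFE3 replicate 1 (0.11, edgeR adjusted p 0.307), without shTFE3 replicate 2 (edgeR adjusted p 0.0586), without shControl replicate 2 (0.202) and by DESeq2 (0.0874). That of LAMA4 was lost without shTFE3 replicate 1 (edgeR adjusted p 0.0775), without shTFE3 replicate 2 (0.0752) and without shControl replicate 2 (0.0885).

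Among the linkers of the basement membrane, AGRN, the gene of agrin, had 704 and 675 CPM in shTFE3 against 999 and 917 CPM in shControl and fell by 0.47 on the log2 scale (SE 0.055, edgeR adjusted p 4.87e-07). NID1, which binds laminin to type IV collagen, had 127 and 138 CPM in shTFE3 against 181 and 177 CPM in shControl and fell by 0.43 (SE 0.059, edgeR adjusted p 6.07e-06). HSPG2, the gene of perlecan, had 440 and 390 CPM in shTFE3 against 506 and 477 CPM in shControl. Its arms were closer, and it fell by 0.24 (SE 0.059, edgeR adjusted p 0.00328), a call lost without shTFE3 replicate 2 (-0.16, edgeR adjusted p 0.147) and without shControl replicate 1 (-0.20, edgeR adjusted p 0.0721). LDLRAD2, which overlaps 11.7% of its exon bases, had 40 counts in all. NID2, the second nidogen, had 74.3 and 66.9 CPM in shTFE3 against 67.9 and 67.2 CPM in shControl, overlapping arms with a log2 fold change of 0.06 (95% interval -0.08 to 0.21). A share of 30.0% of the NID2 exon bases overlaps RTRAF on the opposite strand, which had 5081 counts over the 4 libraries against 4829 for NID2, so its level is uncertain.

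Of 8 matrix glycoproteins 4 fell, none rose, 3 did not pass and POSTN was not tested. The 4 are 57.1% of the 7 tested, beside 12.9% of all tested genes. TNC (ENSG00000041982, chromosome 9, 115019578 to 115118257, minus strand), the gene of tenascin-C, an adhesion-modulating protein of tumour stroma, had 279 and 286 CPM in shTFE3 against 437 and 428 CPM in shControl. It fell by 0.62 on the log2 scale (SE 0.054, edgeR adjusted p 4.11e-09), to 65.3% of control. THBS1, the gene of thrombospondin-1, had 313 and 329 CPM in shTFE3 against 433 and 410 CPM in shControl and fell by 0.39 (SE 0.055, edgeR adjusted p 7.14e-06). SPARC had 814 and 813 CPM in shTFE3 against 1004 and 1060 CPM in shControl and fell by 0.34 (SE 0.052, edgeR adjusted p 2.24e-05). For these genes no knockdown library reached the lower control library.

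FN1 overlapped between the arms, at 14280 and 12584 CPM in shTFE3 against 13637 and 13297 CPM in shControl, with the lower and the higher value both in the knockdown arm. Its log2 fold change was -0.004 (95% interval -0.12 to 0.11, edgeR adjusted p 0.975). VCAN, the gene of the proteoglycan versican, had 2167 and 1894 CPM in shTFE3 against 2151 and 2189 CPM in shControl and did not pass (-0.10, 95% interval -0.21 to 0.02), although without shTFE3 replicate 1, its higher library, it did (-0.19, edgeR adjusted p 0.0432). FBN1, the main fibrillin of microfibrils, had 157 and 139 CPM in shTFE3 against 180 and 175 CPM in shControl and fell by 0.26 (SE 0.062, edgeR adjusted p 0.00263), a call lost without shTFE3 replicate 2 (-0.18, edgeR adjusted p 0.120). FBN2, the fibrillin of the developing embryo and the gene with the CACGTG match, had 180 and 175 CPM in shTFE3 against 173 and 167 CPM in shControl and did not pass (0.07, 95% interval -0.05 to 0.18).

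Among the enzymes that act on collagen, LOXL2 and LOX fell, and P4HA2, PLOD1 and PLOD2 rose. LOXL2 (chromosome 8, 23297189 to 23425328, minus strand), a secreted lysyl oxidase that cross-links type IV collagen, had 281 and 281 CPM in shTFE3 against 408 and 419 CPM in shControl and fell by 0.56 on the log2 scale (SE 0.054, edgeR adjusted p 2.07e-08). LOX, the founding lysyl oxidase, had 43.4 and 40.4 CPM in shTFE3 against 48.9 and 54.1 CPM in shControl and fell by 0.30 (SE 0.077, edgeR adjusted p 0.00561). LOXL1 had at most 1 count in shTFE3 and at most 2 in shControl. P4HA2, a subunit of prolyl 4-hydroxylase, had 125 and 127 CPM in shTFE3 against 104 and 103 CPM in shControl and rose by 0.28 (SE 0.059, edgeR adjusted p 0.000911). PLOD1, a lysyl hydroxylase, had 287 and 280 CPM in shTFE3 against 240 and 246 CPM in shControl and rose by 0.22 (SE 0.055, edgeR adjusted p 0.00392).

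PLOD2, the lysyl hydroxylase of collagen telopeptides, had 561 and 522 CPM in shTFE3 against 450 and 511 CPM in shControl, with the nearest libraries at 522 CPM in shTFE3 and 511 CPM in shControl, and rose by 0.17 (SE 0.060, edgeR adjusted p 0.0378). SERPINH1, the collagen chaperone HSP47, had 36.7 and 37.4 CPM in shTFE3 against 40.6 and 42.6 CPM in shControl and did not pass (-0.17, SE 0.076, edgeR adjusted p 0.118). P4HA2 lost its call without shTFE3 replicate 2 (edgeR adjusted p 0.0586). PLOD1 lost it without shTFE3 replicate 1 (edgeR adjusted p 0.0665), without shTFE3 replicate 2 (0.0598) and without shControl replicate 1 (0.0862). PLOD2 lost it without the same 3 libraries (edgeR adjusted p 0.385, 0.175 and 0.580, with 0.08 on the log2 scale in the last) and by DESeq2 (0.0651), and LOX without shTFE3 replicate 1 (0.0787), without shTFE3 replicate 2 (0.166) and without shControl replicate 2 (-0.22 on the log2 scale, edgeR adjusted p 0.128).

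In the authors' deposited table of 546 changed genes, which holds no absolute log2 fold change under 0.585 and no adjusted p above 0.0498, 5 of the 46 genes are listed, all as lower. These are COL4A2, COL4A1, TNC, COL18A1 and COL12A1, with log2 fold changes of -0.71, -0.61, -0.61, -0.60 and -0.83 in the authors' deposited table. COL5A2 and LOXL2, at -0.57 and -0.56 in the edgeR fit, lie just under that limit.

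Other genes of the matrix, from lists chosen by function but with earlier results of these data known, were read in the same fit. The shares below stand beside 12.9% of all tested genes that fell and 10.3% that rose. Of 14 further basement membrane genes 6 had enough counts, and all 6 fell, led by TINAGL1 (94.6 and 103 CPM in shTFE3 against 175 and 158 CPM in shControl, log2 fold change -0.76, edgeR adjusted p 3.03e-09), a matrix protein related to tubulointerstitial nephritis antigen. With it fell FRAS1 (-0.80), of the complex under epithelium, the netrin NTN4 (-0.65) and TINAG itself (-1.27), which had 3.51 and 2.59 CPM in shTFE3 against 7.04 and 7.69 CPM in shControl. PAPLN and HMCN1 completed the 6. With no filter on low counts 1 of them passed. Of 42 other matrix glycoproteins and proteoglycans, 11 fell (47.8%) and 4 rose (17.4%) among 23 tested. The smallest p-values belonged to EFEMP1 (-1.06), THBS3 (-0.96), NPNT (-1.20), a ligand of an integrin in kidney development, and MATN2 (-1.36). The rises in this list numbered 1 without shTFE3 replicate 2.

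Of 30 genes for folding, processing and export of procollagen 26 were tested, 7 fell and 4 rose. These are 26.9% and 15.4% of the tested genes of the list, beside 12.9% and 10.3% of all tested genes. ADAMTS3, a procollagen N-proteinase, fell by 0.52 on the log2 scale, P4HA1, the other main prolyl 4-hydroxylase subunit, by 0.37 (74.5 and 80.0 CPM in shTFE3 against 96.0 and 104 CPM in shControl, edgeR adjusted p 0.000141) and the prolyl isomerase PPIB by 0.30, while MIA3, which loads collagen into transport carriers, rose by 0.30. P4HA1 and P4HA2 thus lay on opposite sides of 0. The falls in this list numbered 2 without shTFE3 replicate 1, 3 without shTFE3 replicate 2, 3 without shControl replicate 1 and 4 with library totals in place of TMM factors, and the rises 1, 0 and 1 without shTFE3 replicate 1, shTFE3 replicate 2 and shControl replicate 2. Among 5 cross-linking genes LOXL4 fell by 1.44 (2.89 and 2.75 CPM in shTFE3 against 7.45 and 7.87 CPM in shControl) and TGM1 rose by 2.12, with 41 and 42 counts in shTFE3 and 8 and 10 in shControl, a gene that entered the test through the shTFE3 libraries. Of 22 other collagen genes 6 were tested, of which 3 fell and 1 rose. COL14A1, which sits on fibrils like COL12A1, had 196 and 156 CPM in shTFE3 against 243 and 260 CPM in shControl and fell by 0.51 (SE 0.073, edgeR adjusted p 9.51e-06). COL11A2, a minor fibrillar chain of cartilage, had 40 and 41 counts in shTFE3 and 17 and 12 in shControl and rose by 1.41 (SE 0.297, edgeR adjusted p 0.000941). COL28A1, with 5 and 2 counts in shTFE3 and 28 and 22 in shControl, and COL8A2, with 7 and 5 counts in shTFE3 and 14 and 14 in shControl, were tested only because of the control libraries, so a difference was built into their selection. The 4 calls of this list numbered 1 without shTFE3 replicate 2, where 1 gene fell and 0 rose, and 0 genes rose without shTFE3 replicate 1.

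**Figure D4:**
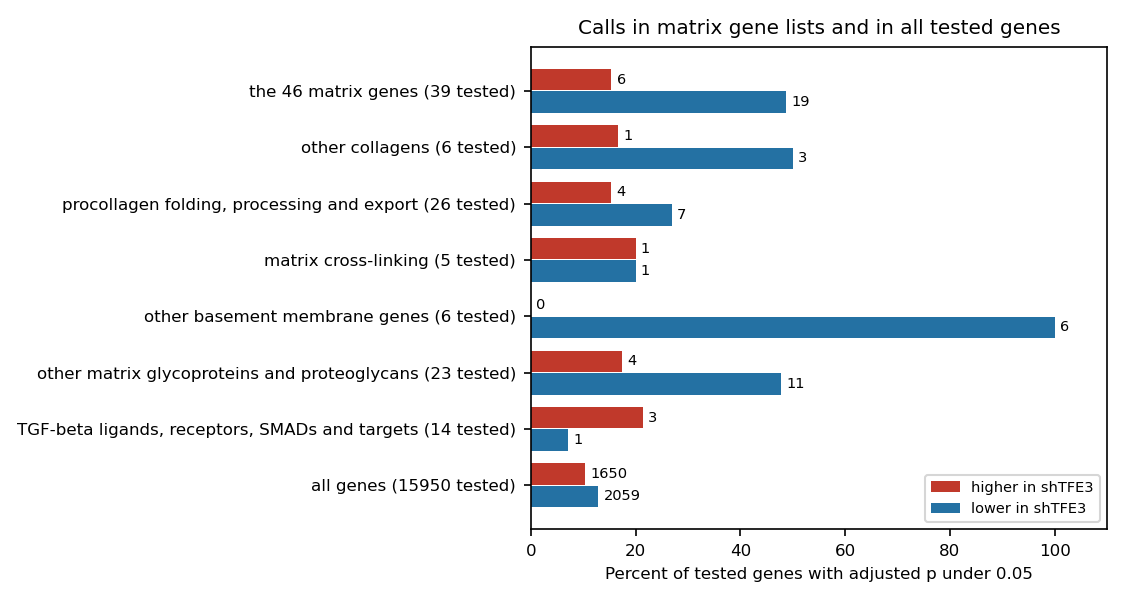
Percent of tested genes called higher (red) or lower (blue) in shTFE3, by list, with the number of called genes at each bar; the bottom rows show all 15950 tested genes, 10.3% higher and 12.9% lower. The further basement membrane genes have 6 of 6 tested genes lower.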

How the data were processed

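The authors' deposited files gave raw counts for each Ensembl gene and the authors' own comparison of the arms, with mean normalized signal, log2 fold changes, a test score, p-values and gene lengths for selected genes. The submitters' processing notes name featureCounts, STAR, DESeq2 and Trim Galore, and the build hg38, without versions. Annotation, strand setting and the treatment of shared reads were not given in the sources used here. The count columns matched the sample titles.

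Counts were tested with edgeR 4.0.16 in R 4.3.3: TMM factors, filterByExpr, the arm as sole term, and quasi-likelihood F tests, adjusted by the Benjamini-Hochberg method over 15950 genes, which held 99.8% of counts. The test drew the variance of each gene towards that of other genes, with 22.4 prior degrees of freedom beside 2 residual ones. Standard errors were taken as the size of the log2 fold change over the root of F. TPM used the union of GENCODE release 29 exons, which lay within 10% of the deposited gene length for 466 of the 546 genes in the authors' table. Replicates differed beyond sampling noise (chi-square per degree of freedom 3.63 in shTFE3, 2.14 in shControl). The alternatives were other normalizations and filters, DESeq2 1.42.0, limma-voom of limma 3.58.1, a replicate block, each library left out, and the longest transcript as length for TPM, which changed the order of some levels.

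The 46 genes and the other lists were chosen with earlier results of these data known. The text gives every called gene of the 46 by library, names TFE3 as the check of the knockdown, and names the up to 4 called genes with the smallest p of each other list; further genes were named after their values were seen. ChIP data of the same study were not used here. A result of the TGF-beta list is not reported here.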

Additional observations from a re-analysis of the deposited data

How the results depend on the processing

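Of the 46 genes 6 rose and 19 fell. Their calls were the same with other normalization factors, with limma-voom and with at least 50 counts in 2 libraries. No filter on low counts doubles the tested genes to 31954. Then 0 of the 46 rose and 7 fell, beside 0.325% and 0.876% of all tested genes. With DESeq2 3 rose and 19 fell, beside 5.32% and 8.6% of all tested genes. With each library left out in turn, fewer of the 46 passed in either direction, as did fewer of all tested genes. The median log2 fold change of the tested genes of the list then lay between -0.34 and -0.24, beside -0.0031 to 0.0032 for all tested genes. A lone library was then assumed to vary like the other arm. With the replicate number as a block, 6 rose and 19 fell, as without it, and 6 of the procollagen processing genes fell; same-numbered libraries did not deviate together (correlation -0.0689 over 12183 genes), so the numbers are not shown to pair the samples. Without a filter, genes of the other lists that passed numbered 0 higher and 0 lower (other collagens), 0 higher and 1 lower (procollagen processing), 1 lower (other basement membrane), 0 higher and 5 lower (other glycoproteins) and 1 higher (TGF-beta). With DESeq2 other collagens had 0 higher and 1 lower and other glycoproteins 2 higher. With at least 50 counts other collagens had 0 higher and 1 lower and cross-linking genes 0 higher. With library totals only, procollagen processing had 4 lower and cross-linking 2 higher. With a library left out, the lowest and highest counts were 0 and 1 higher and 1 and 2 lower (other collagens), 0 and 3 higher and 2 and 5 lower (procollagen processing), and 1 and 4 higher (other glycoproteins). Signs turned for uncalled genes only: COL6A3 (-0.90 to 0.0276 with a library left out), NID2 (-0.0114 to 0.14 likewise) and FN1 (-0.10 to 0.0832 likewise; also 0.0331 with library totals only and 0.0052 with at least 50 counts); the cause was not tested. Library totals moved the median of all genes by 0.04 (log2), with 13.3% of genes higher and 10.5% lower. The counts limit COL4A3, COL4A4, COL6A3, COL17A1 and LAMA2, all near or under 40 counts a library, and the other untested genes of the 46.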

Other observations

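Genes of the TGF-beta pathway, whose SMAD factors act on many collagen and matrix genes, were read in the same fit. Of 15 listed, 14 were tested and 3 rose, 21.4% of the tested beside 10.3% of all tested genes. SKI, a repressor of SMAD activity, had 106 and 101 CPM in shTFE3 against 69.7 and 67.3 CPM in shControl and rose by 0.60 on the log2 scale (SE 0.064, edgeR adjusted p 1.21e-07). SMAD3, a signalling factor of the pathway, rose by 0.30 (173 and 177 CPM in shTFE3 against 144 and 139 CPM in shControl, edgeR adjusted p 0.000282), and SKIL, a relative of SKI, by 0.25 (85.6 and 74.8 CPM in shTFE3 against 66.1 and 68.3 CPM in shControl, edgeR adjusted p 0.0098). The arms did not overlap in SKI, SMAD3 or SKIL, a separation that 60.3% of all tested genes also had. The median log2 fold change of the 14 was 0.03.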
